A study of Mus musculus with 6 samples.

Results

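The genes described here are the 42 members of a list of the unfolded protein response and of the chaperones of the endoplasmic reticulum (ER), chosen by gene name from the 55401 genes of the deposited table. They were measured in mesenchymal stromal cells, connective tissue progenitors grown in culture from femoral bone marrow of C57/B6J mice. The data comprised 6 RNA sequencing libraries in 2 groups of 3: wild-type (WT) cells and NLRP3-/- cells (knockout), both exposed to 3 µg/mL of lipopolysaccharide (LPS), a bacterial outer membrane component, for 24 h. The comparison therefore addressed how the genotypes differed under LPS, not how either responded to it. How the knockout allele was made, the age of the animals, and whether the 3 libraries of a group came from separate animals or cultures are not given in the labels. The p-values therefore reflect spread among 6 libraries, and that spread may be technical.

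The unfolded protein response adjusts the folding capacity of the ER to its load. Its sensors are ATF6, a membrane-bound transcription factor released by cleavage, IRE1 (Ern1), which splices the mRNA of the factor XBP1, and PERK (Eif2ak3), which phosphorylates eIF2alpha and so favours translation of ATF4. ATF6 and XBP1 are known for inducing chaperones, folding enzymes and the machinery that degrades misfolded ER proteins. ATF4 and its target CHOP (Ddit3) are known for inducing genes of amino acid supply, feedback dephosphorylation and cell death, and ATF4 also answers to kinases that sense stresses outside the ER. Stromal cells secrete much collagen and other matrix, which is folded in this compartment.

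The members were grouped by role: 11 chaperones and cochaperones of the HSP70 and HSP90 systems, 8 lectin chaperones and disulfide isomerases, 2 genes of protein translocation and 9 of ER-associated degradation, which make 30 ATF6/XBP1-type genes in all, then 4 sensors and factors and 8 genes of the ATF4/CHOP branch. Levels are FPKM (fragments per kilobase of transcript, scaled to the total number of fragments). Each fold change is the knockout mean less the WT mean of log2(FPKM + 1), given with its standard error (SE); this scale understates the change of low genes. A gene is called, and said to rise or fall, where the adjusted p from limma with Benjamini-Hochberg adjustment over all 12136 tested genes was below 0.05. Of the 42 members, 41 passed the low-value filter, which asks for 1 FPKM or more in 3 or more libraries.

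Libraries held 53.2 to 66.3 M (mega) estimated counts and 11713 to 12089 genes at 1 FPKM or more. Nlrp3 had 0 estimated counts in each knockout library and between 444 and 730 in the WT libraries. Knockout replicate 3 stood apart from the other knockout libraries: mitochondrial genes took 1.77% of its counts, against 2.90% and 3.18%, and its departure from their mean followed the GC content of transcripts (Spearman's rho 0.54 across 10684 genes, a description over genes that share these libraries). The departure also ran against transcript length (rho -0.36 across the same genes). Of 33 macrophage markers, 27 were tested and all 27 rose. Aif1 and Trem2 passed the filter only through their knockout libraries. Of the untested markers, Ptprc, Clec7a, Mertk and Mrc1 had higher knockout means, with overlap of the groups in Mrc1, and Cx3cr1 and Ccr2 had lower ones. The summed FPKM of the 33 lay between 806 and 913 in WT and between 1862 and 2110 in knockout libraries. Lyz2 alone had means of 463 and 1145 FPKM in WT and knockout cells. None of the 33 was at 0 in all libraries, but 5 were below 1 FPKM in all. Adgre1 (F4/80) stood at 44.0 ± 2.7 and 134 ± 2.8 FPKM in the respective genotypes, Csf1r at 6.67 ± 0.17 and 17.7 ± 0.85, Itgam at 9.83 ± 2.1 and 19.8 ± 4.6, and Ptprc (CD45), below the filter, at 0.303 ± 0.040 and 0.843 ± 0.32 (SD, n = 3 each). Of 22 stromal markers, 21 were tested, of which 4 rose and 11 fell, and their summed FPKM lay between 4770 and 5040 in WT and between 3645 and 3826 in knockout libraries. The stromal markers Pdgfra (30.2 ± 1.7 against 2.96 ± 0.23 FPKM) and Thy1 (134 ± 6.2 against 11.8 ± 1.2) were among the 11 that fell. The 4 that rose were Nes (11.1 to 33.7 FPKM), Nt5e (CD73, 0.183 to 2.35), Twist1 (11.6 to 19.3) and Cxcl12 (46.9 to 59.7). Markers of the labelled stromal identity were thus present in both genotypes, among them Col1a1 (1726 and 1301 FPKM) and Vim (292 and 300). Not all were: Nt5e lay below 1 FPKM in the WT libraries and Lepr in all libraries. Macrophage genes were detected in every library of both genotypes. Of 10 granulocyte markers 4 were tested: S100a8 (0.783 to 4.497 FPKM), Csf3r (1.36 to 5.40) and Mmp8 (0.910 to 3.36) rose and Camp (9.05 to 4.60) fell, while Elane was at 0 in all libraries. S100a8 and Mmp8 passed the filter through their knockout libraries. Secreted matrix genes, the main cargo of the stromal ER, fell in 10 and rose in 3 of 15 tested cases. In these bulk libraries, more cells of a type and more RNA per cell cannot be told apart, and the part of these shifts in the results below was not tested.

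Among the 41 tested members, 23 rose and none fell, against 10.4% of all tested genes that rose and 9.2% that fell. Their median log2 fold change was 0.33, beside 0.01 over all tested genes. The absence of a call downwards held in the main limma fit, where 2 members were lower at an unadjusted p under 0.05. It also held in edgeR, which called 21 higher and 0 lower (8.48% and 8.12% of all genes it tested). DESeq2 called 22 higher and 1 lower (8.35% and 7.74%), and limma with the replicate number as a block also called 1 lower. In 28 members every knockout library was above every WT library, as in 18.8% of all tested genes. Chaperones of the HSP70 and HSP90 systems had 9 of 11 called and a median of 0.84, lectin chaperones and isomerases 4 of 8 and 0.26, degradation genes 5 of 8 tested and 0.34, and the ATF4/CHOP branch 2 of 8 and 0.14. Over the 30 ATF6/XBP1-type genes, 29 were tested, 19 rose and the median was 0.43. Whether the groups differ from each other was not tested, and the members and the grouping were chosen with results of these data known. With 1 library left out, the number of members that rose was 13, 14 and 13 without WT replicate 1, 2 and 3, 15 and 19 without knockout replicate 1 and 2, and 24 without knockout replicate 3, where 2 fell. With no filter on low values 15 rose, the calls lost being those of Hsp90b1, Calr, Pdia3, Sel1l, Derl1, Atf6, Ppp1r15a and Chac1 (adjusted p between 0.0549 and 0.0802). edgeR without a filter called 19 higher, Sel1l, Ssr1, Derl1 and Chac1 not among them (between 0.0523 and 0.104).

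**Figure D1:**
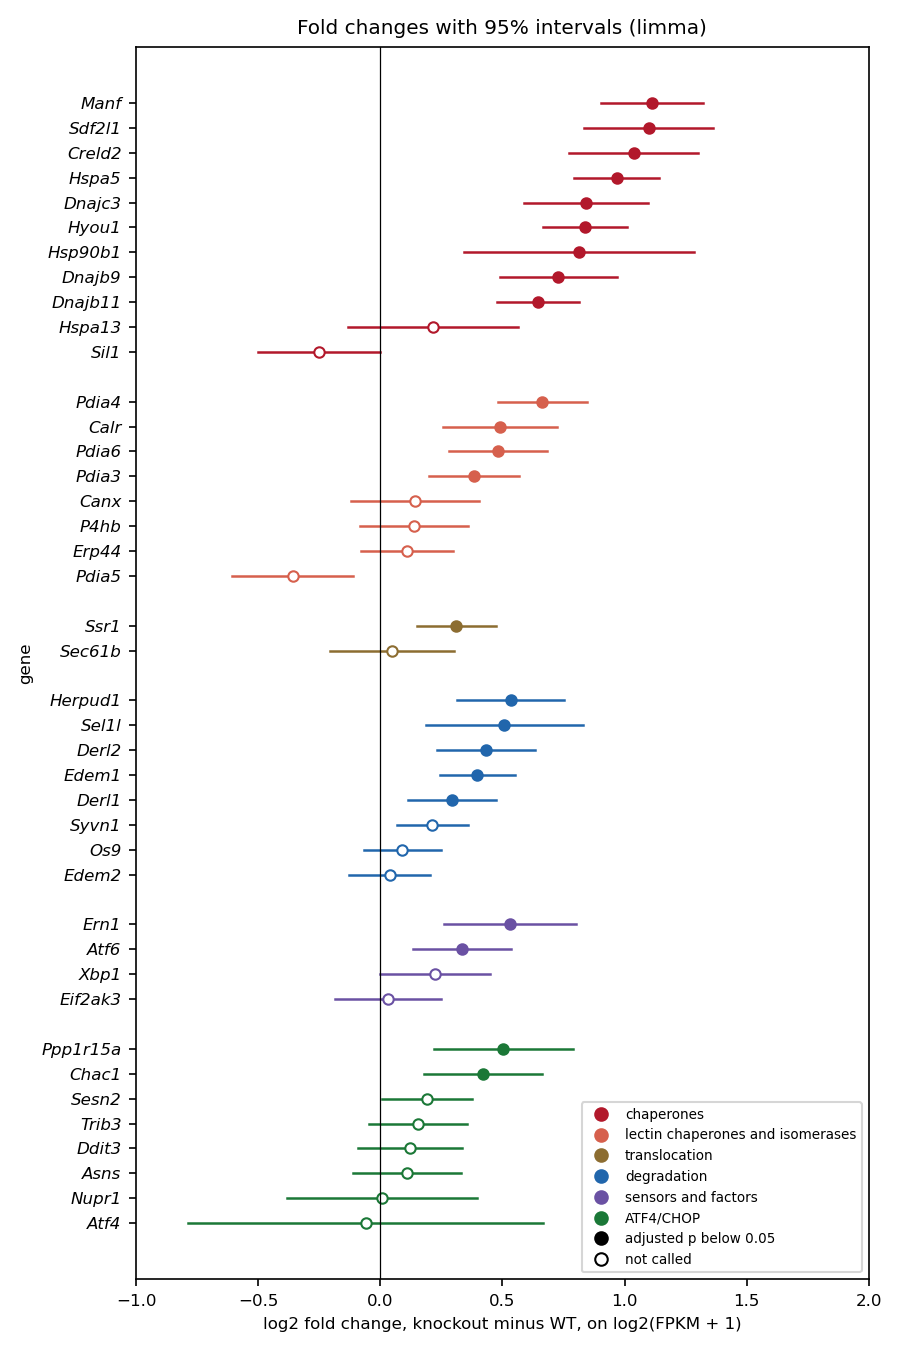
Log2 fold change of each of the 41 tested members (knockout minus WT, x axis, log2 scale; points, with 95% intervals from limma as bars), grouped and coloured by role. Filled points passed at an adjusted p of 0.05. The chaperones reach the highest values, up to 1.11 for Manf, and 6 of the 8 ATF4/CHOP genes are not called.

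As summed FPKM, the 30 ATF6/XBP1-type genes took 1.01% to 1.06% of the total in WT and 1.46% to 1.49% in knockout cells, so that the groups did not overlap. The chaperones alone took 0.222% to 0.242% of the total in WT and 0.397% to 0.466% in knockout cells, with knockout replicate 3 at the lower end. The 8 ATF4/CHOP genes took between 0.0956% and 0.119% in WT and between 0.105% and 0.126% in knockout libraries, and here the groups overlapped. As a mean of log2(FPKM + 1), which weighs each gene alike, the groups were apart for these genes too. That mean lay between 4.98 and 5.02 in WT and between 5.14 and 5.23 in knockout libraries. For the ATF6/XBP1-type genes it lay between 5.25 and 5.28 and between 5.67 and 5.72. These shares and means are descriptions, with no test.

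Promoters of ER chaperones are known for the ER stress element, bound jointly by NF-Y and by ATF6 or XBP1, and genes of the ATF4 branch for a C/EBP-ATF composite site. Windows from 250 bases before to 50 bases after each start, from RefSeq (GRCm38.p6), were found for 36 of the 42 members; Derl1, Manf, Hyou1, Sil1, Hspa13 and Atf6 had no entry. The start used was the edge of the RefSeq gene in 60.35% of all windows, so a window can lie inside a gene. They were searched on both strands for the ER stress element (ERSE: CCAAT, then 9 bases of any kind, then CCACG), its second form (ERSE-II: ATTGG, then 1 base of any kind, then CCACG), the XBP1-type element TGACGTGG (UPRE) and the composite site TGATGNAA (CARE), and no matches of different motifs overlapped. An ERSE was present in 0.119% of all 32851 windows, an ERSE-II in 0.0365%, a UPRE in 0.676% and a CARE in 3.97%. Among members, 9 had an ERSE (Hspa5, Hsp90b1, Dnajc3, Creld2, Calr, Canx, Pdia6, Syvn1 and Derl3), 2 an ERSE-II (Dnajb11 and Herpud1) and none a UPRE, and no sensor or ATF4/CHOP gene had an ERSE or ERSE-II. A CARE was present in 4 of 8 ATF4/CHOP windows (Trib3, Chac1, Asns and Nupr1) and in that of Herpud1.

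The stretches below show the upstream matches of the 7 ATF6/XBP1-type genes that rose (Hspa5 to Herpud1), then of 2 that were not called (Canx and Syvn1), and last the CARE of a called and an uncalled ATF4/CHOP gene (Chac1, then Asns). Upstream means before the RefSeq start used: the stretches of Hspa5 and Asns lie inside the gene spans of the deposited table. Dnajb11, which rose, is not shown because its ERSE-II lies after the start, and the matches of Derl3, Trib3 and Nupr1 are not shown either. The stretches run 5′ to 3′ on the strand of the gene, with the matched letters in capitals; CGTGG first and ATTGG last is the ERSE read on the other strand, and TTGCATCA is the CARE read on the other strand.
Hspa5 (chr2:34772005-34772063, plus strand): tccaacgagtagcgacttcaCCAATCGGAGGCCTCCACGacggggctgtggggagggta
Hsp90b1 (chr10:86705513-86705676, minus strand): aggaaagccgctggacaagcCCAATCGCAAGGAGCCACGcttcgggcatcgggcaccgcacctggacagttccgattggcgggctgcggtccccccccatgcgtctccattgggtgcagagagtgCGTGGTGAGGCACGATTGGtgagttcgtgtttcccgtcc
Dnajc3 (chr14:118937807-118937865, plus strand): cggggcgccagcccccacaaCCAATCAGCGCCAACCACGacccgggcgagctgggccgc
Creld2 (chr15:88819500-88819558, plus strand): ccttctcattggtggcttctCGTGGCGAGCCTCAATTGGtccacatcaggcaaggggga
Calr (chr8:84847055-84847113, minus strand): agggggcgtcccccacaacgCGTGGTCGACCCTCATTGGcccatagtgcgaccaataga
Pdia6 (chr12:17266471-17266529, plus strand): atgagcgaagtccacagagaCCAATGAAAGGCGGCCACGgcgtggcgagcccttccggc
Herpud1 (chr8:94386297-94386407, plus strand): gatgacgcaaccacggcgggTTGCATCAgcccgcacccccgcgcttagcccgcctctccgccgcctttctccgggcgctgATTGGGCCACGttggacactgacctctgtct
Canx (chr11:50325780-50325838, minus strand): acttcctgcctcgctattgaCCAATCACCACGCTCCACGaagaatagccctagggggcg
Syvn1 (chr19:6046512-6046570, plus strand): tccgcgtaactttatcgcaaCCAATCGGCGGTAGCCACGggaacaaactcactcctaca
Chac1 (chr2:119351029-119351076, plus strand): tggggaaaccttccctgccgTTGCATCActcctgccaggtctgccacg
Asns (chr6:7693210-7693252, minus strand): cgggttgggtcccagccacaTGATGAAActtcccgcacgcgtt

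**Figure D2:**
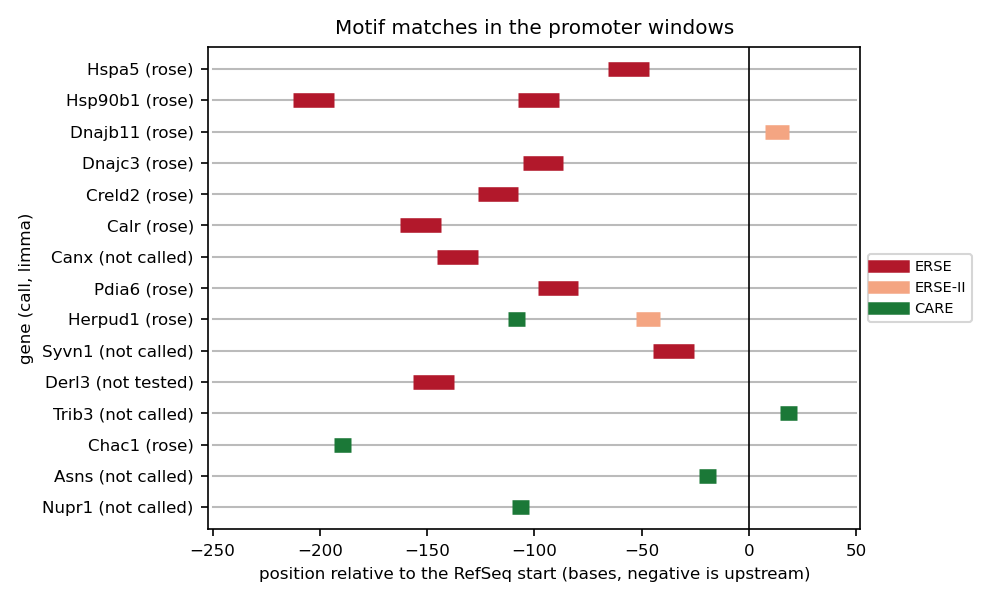
Position of each motif match (coloured blocks) in the promoter windows of the 15 members with a match, in bases from the RefSeq start (x axis; the vertical line is the start, negative is upstream), with the limma call after each name. The ERSE and ERSE-II blocks belong to ATF6/XBP1-type genes, and Herpud1 has both an ERSE-II and a CARE.

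Of the 11 ATF6/XBP1-type genes with an ERSE or ERSE-II, 10 were tested, 8 rose and the median log2 fold change was 0.59. Of the 14 with a window and neither motif, 8 rose and the median was 0.35, so that genes without a match in these windows rose too (Sdf2l1, Pdia4 and Edem1 among them). Of the 4 ATF4/CHOP genes with a CARE, 1 rose (Chac1). A match describes letters in a window and not occupancy by a factor, and the differences between these groups of genes were not tested.

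Hspa5 encodes BiP, the HSP70 of the ER and the chaperone that holds the sensors inactive. It lies on chromosome 2 (ENSMUSG00000026864, GRCm38, positions 34771970 to 34777547, plus strand). It stood at 226, 229 and 222 FPKM in the WT libraries and at 457, 427 and 444 in the knockout libraries, a 1.96-fold difference of the means (log2 fold change 0.97 ± 0.07 SE, adjusted p = 0.000246). All knockout libraries lay far above every WT library, and the spread within each group was small beside the gap. Its partner Hsp90b1 (GRP94, the HSP90 of the ER) stood at 250.3, 288 and 268 FPKM in the WT libraries and at 544, 563 and 345 in the knockout libraries, a 1.80-fold difference of the means (log2 fold change 0.81 ± 0.20 SE, adjusted p = 0.0303). The groups did not overlap, but knockout replicate 3 lay well below the other knockout libraries. The call of Hsp90b1 was lost without any single library other than knockout replicate 3 (adjusted p between 0.0686 and 0.105), and a non-coding gene on the opposite strand, 1810014B01Rik, overlaps it, with 7.44 FPKM in WT and 15.4 in knockout cells. A small gene inside Hsp90b1 on the same strand, Gm25745, was listed at 249.9 and 458 FPKM; how reads were divided between them is not stated.

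Among cochaperones and exchange factors of BiP, Hyou1, Dnajb9, Dnajb11 and Dnajc3 rose and Sil1 was not called. Hyou1 (GRP170), an exchange factor that is itself a large HSP70, stood at 24.5, 25.1 and 24.3 FPKM in the WT libraries and at 41.2, 46.8 and 46.7 in the knockout libraries, a 1.82-fold difference of the means (log2 fold change 0.84 ± 0.07 SE, adjusted p = 0.000405). The J-domain proteins Dnajb9 (ERdj4), Dnajb11 (ERdj3) and Dnajc3 (p58IPK) direct substrates to BiP. Dnajb9 stood at 7.33, 7.09 and 6.56 FPKM in the WT libraries and at 13.0, 13.2 and 10.6 in the knockout libraries, a 1.76-fold difference of the means (log2 fold change 0.73 ± 0.10 SE, adjusted p = 0.00299). Dnajb11 stood at 36.8, 39.6 and 36.1 FPKM in the WT libraries and at 59.0, 56.3 and 62.4 in the knockout libraries, a 1.58-fold difference of the means (log2 fold change 0.64 ± 0.07 SE, adjusted p = 0.00111). In both genes every knockout library was above every WT library. Dnajc3 stood at 19.1, 19.6 and 19.6 FPKM in the WT libraries and at 37.2, 40.0 and 30.3 in the knockout libraries, a 1.85-fold difference of the means (log2 fold change 0.84 ± 0.11 SE, adjusted p = 0.00206), with its WT libraries within 1 FPKM of each other and knockout replicate 3 the lowest of its group. Sil1, the other exchange factor of BiP, stood at 14.5, 14.9 and 12.8 FPKM in the WT libraries and at 11.4, 10.4 and 13.2 in the knockout libraries (log2 fold change -0.25, adjusted p = 0.158), with knockout replicate 3 inside the WT range, and was called lower only without that library (-0.34, adjusted p = 0.0465). Hspa13, an atypical microsomal HSP70, stood at 5.63, 6.21 and 5.77 FPKM in the WT libraries and at 7.72, 8.15 and 5.36 in the knockout libraries. Its first knockout libraries lay above and replicate 3 below all WT libraries, so that the groups overlapped (0.22, adjusted p = 0.369), and it was called higher without that library (0.38, adjusted p = 0.0176).

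The largest fold changes of the list belonged to 3 small soluble ER proteins. Manf, a secreted factor that binds BiP and protects cells from ER stress, stood at 41.6, 37.1 and 38.7 FPKM in the WT libraries and at 85.8, 78.5 and 93.4 in the knockout libraries, a 2.20-fold difference of the means (log2 fold change 1.11 ± 0.09 SE, adjusted p = 0.00028). Sdf2l1, which works with Dnajb11 in keeping clients soluble, stood at 28.9, 24.9 and 30.0 FPKM in the WT libraries and at 58.2, 55.7 and 69.2 in the knockout libraries, a 2.19-fold difference of the means (log2 fold change 1.10 ± 0.11 SE, adjusted p = 0.000803). Creld2, an ER protein with EGF-like repeats and isomerase activity, stood at 46.0, 41.8 and 45.8 FPKM in the WT libraries and at 90.6, 81.3 and 107 in the knockout libraries, a 2.09-fold difference of the means (log2 fold change 1.04 ± 0.11 SE, adjusted p = 0.000993). In these 3 genes knockout replicate 3 was the highest library, the reverse of its place in Hsp90b1 and Dnajc3. Manf lies on chromosome 9 (ENSMUSG00000032575, GRCm38, positions 106838312 to 106891915, minus strand), Sdf2l1 on chromosome 16 (ENSMUSG00000022769, GRCm38, positions 17130138 to 17132383, minus strand) and Creld2 on chromosome 15 (ENSMUSG00000023272, GRCm38, positions 88819646 to 88826683, plus strand). Manf overlaps Rbm15b and Dcaf1, whose means were 10.6 and 5.61 FPKM in WT and 12.03 and 5.11 in knockout cells.

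**Figure D3:**
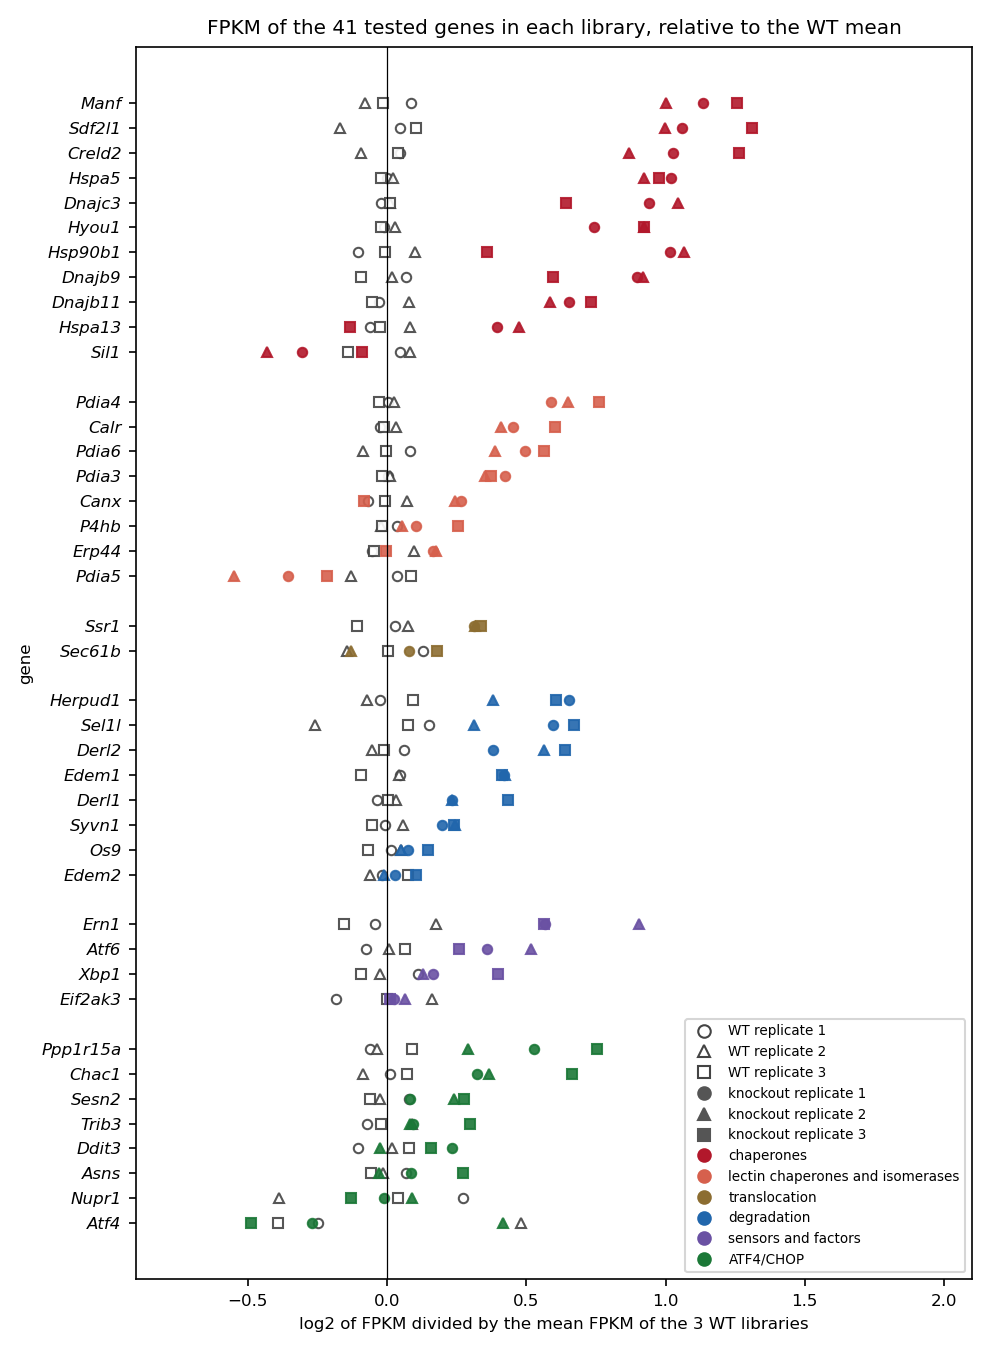
FPKM of each of the 41 tested members in each library, divided by the mean of the 3 WT libraries (x axis, log2 scale; open symbols WT, filled symbols knockout, coloured by role; circle, triangle and square are replicates 1, 2 and 3). In 28 genes every knockout symbol lies to the right of every WT symbol; the square of knockout replicate 3 is the lowest knockout symbol in Hsp90b1 and Dnajc3 and the highest in Manf and Creld2.

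Lectin chaperones and disulfide isomerases, which fold glycoproteins and form disulfide bonds, included the most abundant members and changed less. Calr, the soluble lectin chaperone calreticulin, stood at 700.4, 729.6 and 707 FPKM in the WT libraries and at 976, 946 and 1083 in the knockout libraries, a 1.41-fold difference of the means (log2 fold change 0.49 ± 0.10 SE, adjusted p = 0.0147). Pdia3 (ERp57), the isomerase that works with it, stood at 415, 417 and 409 FPKM in the WT libraries and at 555, 529 and 536 in the knockout libraries, a 1.305-fold difference of the means (log2 fold change 0.38 ± 0.08 SE, adjusted p = 0.0147). Neither gene had a knockout library within the WT range, although both calls were lost without any 1 WT library or without knockout replicate 1 (adjusted p between 0.0538 and 0.0785). Canx, the membrane-bound counterpart calnexin, stood at 103, 113 and 107 FPKM in the WT libraries and at 129.7, 128 and 102 in the knockout libraries (0.14, adjusted p = 0.434). Knockout replicate 3 was its lowest library of all, and without it Canx was called (0.25, adjusted p = 0.0488).

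Pdia4 (ERp72) had the largest change of the isomerases. It stood at 178, 181 and 174 FPKM in the WT libraries and at 267, 279 and 302 in the knockout libraries, a 1.59-fold difference of the means (log2 fold change 0.66 ± 0.08 SE, adjusted p = 0.0014). Pdia6 (P5), which also acts on the sensor IRE1, stood at 203, 181 and 192 FPKM in the WT libraries and at 271, 251 and 284 in the knockout libraries, a 1.40-fold difference of the means (log2 fold change 0.48 ± 0.08 SE, adjusted p = 0.00839). For both, the knockout libraries were all above the WT libraries. P4hb, protein disulfide isomerase itself and the second subunit of collagen prolyl 4-hydroxylase, stood at 566, 544 and 545 FPKM in the WT libraries and at 593, 572 and 658 in the knockout libraries (0.14, adjusted p = 0.370). Its groups did not overlap but were close. Erp44, which retains clients between ER and Golgi, ranged from 19.7 to 21.8 in WT and from 20.4 to 23.0 in knockout libraries and was not called. Pdia5 (PDIR), an isomerase linked to the activation of ATF6, was the member with the lowest fold change: it stood at 34.4, 30.7 and 35.7 FPKM in the WT libraries and at 26.2, 22.9 and 28.9 in the knockout libraries (-0.36, adjusted p = 0.0559). Every knockout library was below every WT library, as for 18.0% of all tested genes. Pdia5 was called lower by DESeq2 (adjusted p = 0.0371), in limma with the replicate number as a block (0.0219) and without knockout replicate 3 (0.0269).

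Of the translocation genes, Ssr1, a subunit of the translocon-associated protein complex, stood at 23.6, 24.4 and 21.5 FPKM in the WT libraries and at 28.7, 28.8 and 29.3 in the knockout libraries, a 1.25-fold difference of the means (log2 fold change 0.31 ± 0.07 SE, adjusted p = 0.0206). The groups were apart, and the call was lost without WT replicate 1 or 3 or knockout replicate 1 (adjusted p between 0.0683 and 0.07005). Sec61b, a subunit of the translocation channel, ranged from 33.8 to 40.8 in WT and from 34.2 to 42.3 in knockout libraries, overlapped throughout and was not called (0.05, 95% interval -0.21 to 0.30).

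Of the 8 tested degradation genes, 5 rose, with log2 fold changes between 0.29 and 0.53. Herpud1, a scaffold of the retrotranslocation complex whose promoter has both motifs above, stood at 29.9, 28.9 and 32.5 FPKM in the WT libraries and at 47.9, 39.6 and 46.3 in the knockout libraries, a 1.47-fold difference of the means (log2 fold change 0.53 ± 0.09 SE, adjusted p = 0.00773). Sel1l, the adaptor of the HRD1 ubiquitin ligase, stood at 16.8, 12.7 and 15.9 FPKM in the WT libraries and at 22.9, 18.8 and 24.1 in the knockout libraries, a 1.45-fold difference of the means (log2 fold change 0.51 ± 0.13 SE, adjusted p = 0.0415). WT replicate 2 and knockout replicate 2 were the lowest of their groups, and the groups did not overlap. Sel1l lost its call without any 1 library except knockout replicate 2 (adjusted p between 0.0599 and 0.129) and with libraries scaled to one median (0.0593). Syvn1, the ligase HRD1 itself, stood at 13.1, 13.7 and 12.7 FPKM in the WT libraries and at 15.1, 15.6 and 15.5 in the knockout libraries (0.21, adjusted p = 0.0551). It was just outside the threshold, with no overlap of the groups, and Mrpl49 overlaps it on the opposite strand at 15.1 and 12.9 FPKM in WT and knockout libraries.

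Edem1, which draws misfolded glycoproteins out of the folding cycle, stood at 14.7, 14.6 and 13.3 FPKM in the WT libraries and at 19.0, 19.0 and 18.9 in the knockout libraries, a 1.34-fold difference of the means (log2 fold change 0.40 ± 0.06 SE, adjusted p = 0.00599). Its knockout libraries were almost identical. Its relative Edem2 ranged from 8.63 to 9.49 in WT and from 8.94 to 9.69 in knockout libraries (0.04, 95% interval -0.13 to 0.20), and the lectin Os9, which delivers glycoproteins to the ligase, from 76.1 to 82.4 and from 82.5 to 88.2; neither was called. The derlins form part of the retrotranslocation channel. Derl2 stood at 3.98, 3.67 and 3.79 FPKM in the WT libraries and at 4.97, 5.63 and 5.94 in the knockout libraries, a 1.45-fold difference of the means (log2 fold change 0.43 ± 0.08 SE, adjusted p = 0.0127). Derl1 stood at 30.4, 31.8 and 31.2 FPKM in the WT libraries and at 36.6, 36.6 and 42.1 in the knockout libraries, a 1.23-fold difference of the means (log2 fold change 0.29 ± 0.08 SE, adjusted p = 0.039). Both were apart between the groups. Derl2 lost its call without WT replicate 2 (0.053), and Derl1 in 12 of 15 alternatives: in edgeR and DESeq2 (0.0794 and 0.0665), in edgeR without a filter (0.104) and with DESeq2 size factors (0.0638), in limma without a filter (0.0556), with libraries scaled to one median (0.0951) and with the replicate number as a block (0.0579), and without any 1 library other than knockout replicate 3 (between 0.0522 and 0.139). Derl3, the derlin typical of secretory cells such as plasma cells, did not pass the filter, with between 0.05 and 0.19 FPKM in WT and between 0.15 and 0.22 in knockout libraries. Of 13 B and plasma cell markers, 4 were at 0 in all libraries and 2 passed the filter, with Mzb1 at most 0.03 and Jchain at most 0.72 FPKM. The 2 that passed were Igkc, at 13.3, 10.4 and 2.26 FPKM in WT and 7.16, 3.43 and 2.01 in knockout replicates 1 to 3 (not called, adjusted p = 0.459), and Sdc1, which stromal cells also express and which rose from 52.2 to 74.5.

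Of the 4 sensors and factors, 2 rose. Ern1 (IRE1) stood at 2.68, 3.12 and 2.48 FPKM in the WT libraries and at 4.09, 5.17 and 4.08 in the knockout libraries, a 1.61-fold difference of the means (log2 fold change 0.53 ± 0.11 SE, adjusted p = 0.0185). Atf6 stood at 6.13, 6.49 and 6.75 FPKM in the WT libraries and at 8.28, 9.25 and 7.73 in the knockout libraries, a 1.304-fold difference of the means (log2 fold change 0.33 ± 0.08 SE, adjusted p = 0.0349). Both were apart between the groups. Ern1 lost its call without WT replicate 1 or 3 (adjusted p 0.0699 and 0.0689), and Atf6 without any 1 library other than knockout replicate 3 (between 0.0751 and 0.128) and with the replicate number as a block (0.0698). Eif2ak3 (PERK) stood at 3.53, 4.49 and 4.01 FPKM in the WT libraries and at 4.08, 4.19 and 4.04 in the knockout libraries (0.03, 95% interval -0.19 to 0.25, adjusted p = 0.853). Its knockout libraries lay inside the WT range. Xbp1 stood at 18.6, 16.9 and 16.2 FPKM in the WT libraries and at 19.3, 18.9 and 22.7 in the knockout libraries (0.22, adjusted p = 0.166), with no overlap but a gap smaller than the spread of either group. These are total transcript levels per gene; the spliced form of Xbp1, cleaved ATF6 and phosphorylated eIF2alpha were not analysed here.

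In the ATF4/CHOP branch, 2 of 8 genes rose and neither transcription factor was called. Atf4 itself stood at 94.0, 156 and 85.1 FPKM in the WT libraries and at 92.6, 149 and 79.5 in the knockout libraries (-0.06 ± 0.30 SE, adjusted p = 0.919). Replicate 2 was far above the other libraries in both genotypes, so that the interval of the fold change ran from -0.79 to 0.67. That interval takes no account of the shift shared by same-numbered libraries of this gene. With the replicate number as a block Atf4 was not called either. The sign of its fold change turned without WT replicate 2 (0.20), knockout replicate 1 (0.02) or knockout replicate 3 (0.13). Ddit3 (CHOP), the pro-apoptotic factor of the branch, stood at 38.6, 41.9 and 43.8 FPKM in the WT libraries and at 48.6, 40.7 and 46.2 in the knockout libraries (0.12, 95% interval -0.09 to 0.34, adjusted p = 0.411). The groups overlapped, and Mars1 on the opposite strand overlaps the gene at 40.5 and 40.6 FPKM. A second row of the table named Ddit3, inside the same locus, held at most 0.01 FPKM.

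The 2 that rose are targets of ATF4 and CHOP. Ppp1r15a (GADD34), which directs the phosphatase that reverses eIF2alpha phosphorylation, stood at 17.9, 18.2 and 19.9 FPKM in the WT libraries and at 27.0, 22.9 and 31.5 in the knockout libraries, a 1.45-fold difference of the means (log2 fold change 0.50 ± 0.12 SE, adjusted p = 0.0284). Chac1, which degrades glutathione, stood at 11.3, 10.6 and 11.8 FPKM in the WT libraries and at 14.03, 14.5 and 17.8 in the knockout libraries, a 1.37-fold difference of the means (log2 fold change 0.42 ± 0.10 SE, adjusted p = 0.0303). Both had all knockout libraries above all WT libraries, and knockout replicate 3 highest. Neither call was firm: Ppp1r15a lost it without any 1 WT library or knockout replicate 1 (adjusted p between 0.0611 and 0.0999), and Chac1 without any 1 WT library or knockout replicate 2 (between 0.0507 and 0.101) and in edgeR (0.0602).

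Other targets were not called. Trib3, a pseudokinase that feeds back on ATF4 and CHOP, stood at 25.4, 28.4 and 26.3 FPKM in the WT libraries and at 28.5, 28.3 and 32.9 in the knockout libraries (0.15, adjusted p = 0.272). Asns, asparagine synthetase, stood at 69.7, 65.7 and 63.7 FPKM in the WT libraries and at 70.5, 65.1 and 80.2 in the knockout libraries (0.11, adjusted p = 0.475). In both, the groups overlapped. Sesn2, an inhibitor of mTORC1 signalling, stood at 18.5, 17.2 and 16.8 FPKM in the WT libraries and at 18.6, 20.7 and 21.2 in the knockout libraries (0.19, adjusted p = 0.144), with knockout replicate 1 barely above the highest WT library. Nupr1, a stress-induced chromatin protein, stood at 35.03, 22.2 and 29.8 FPKM in the WT libraries and at 28.8, 30.9 and 26.5 in the knockout libraries (0.01, 95% interval -0.38 to 0.40, adjusted p = 0.978), and its WT libraries enclosed all knockout values. Leaving these genes and Atf4 and Ddit3 uncalled does not show that they did not change.

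**Figure D4:**
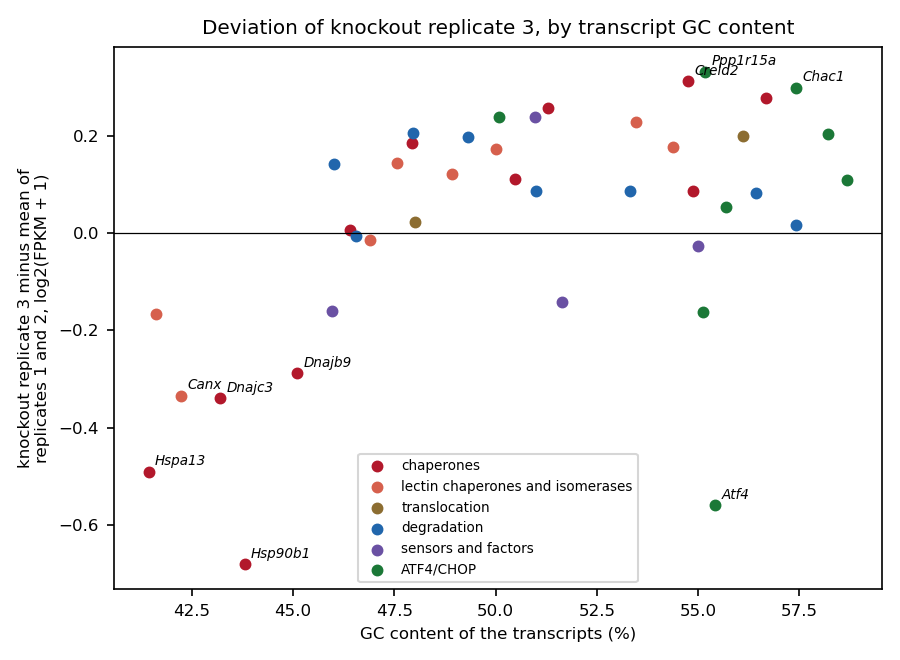
Level of knockout replicate 3 minus the mean of knockout replicates 1 and 2 (y axis, log2(FPKM + 1)) against mean GC content of the protein-coding transcripts of each gene (x axis, percent, GENCODE M21) for the 41 tested members, coloured by role. AT-rich members such as Hsp90b1, Hspa13, Dnajc3 and Canx lie low and GC-rich ones such as Chac1 and Creld2 high, with Atf4 as an exception.

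Knockout replicate 3 lay on opposite sides of its group in different members. Relative to the mean of the other knockout libraries it was lower by 0.68 on the log2 scale in Hsp90b1, where transcripts had 43.8% GC, and higher by 0.31 in Creld2, where they had 54.8% (Spearman's rho 0.45 across the 41 members, a description). With transcript length the rho of this departure was -0.42 across the members. The fold changes of the members themselves went the other way with GC content (rho -0.31, and -0.17 across 10684 tested genes). Without this library, 24 members rose where 23 did with it, and over all tested genes 1685 rose where 1264 did. Hspa5, Hyou1, Dnajb9, Dnajb11, Dnajc3, Sdf2l1, Manf, Creld2, Pdia4, Pdia6, Herpud1 and Edem1 were called higher by limma and in each of the 15 alternatives run.

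Beyond the members, 232 other genes of the pathway from 9 lists were compared; 223 were tested, 24 rose (10.8%, beside 10.4% of all tested genes) and 22 fell, with a median of 0.03. Of 31 tested folding genes that are no members, 5 rose and 2 fell. Values are the WT and knockout means of 3 libraries. Ero1lb, an oxidase that recharges the isomerases, rose with a log2 fold change of 0.66 (0.943 to 2.08 FPKM, adjusted p = 0.00325). The prolyl isomerases Fkbp11 (7.54 to 11.96, 0.60) and Fkbp14 (7.82 to 10.8, 0.42) rose, whereas Fkbp9 (165 to 131, -0.33) and the peroxiredoxin Prdx4 (58.6 to 48.6, -0.27) fell. Of 34 genes of translocation and N-glycosylation, 5 rose and none fell in limma (0 also at an unadjusted p under 0.05, in edgeR and in DESeq2), with a median of 0.15. Serp1 (RAMP4), which stabilizes nascent membrane proteins, rose from 35.9 to 55.6 (0.62, adjusted p = 0.00113), Magt1, an oligosaccharyltransferase subunit, from 9.09 to 14.7 (0.63) and the signal peptidase subunit Spcs3 from 30.2 to 42.8 (0.48).

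Enzymes that modify and fold collagen went both ways: of 15, 2 rose (Plod2, a lysyl hydroxylase, 20.03 to 35.5 FPKM, and Crtap, 78.4 to 98.7) and 4 fell, among them P3h3 (44.7 to 27.3), P4ha2 (60.6 to 42.1) and Plod1 (28.1 to 19.6). Of 28 tested degradation genes that are no members, Erlin2 rose (12.4 to 15.6) and Tmub1 fell (3.86 to 2.87). Of 30 genes of ER to Golgi transport none rose (4 at an unadjusted p under 0.05, 0 in edgeR and 0 in DESeq2) and the GTPase Sar1a fell from 46.2 to 17.5 (-1.31, adjusted p = 0.0072). Among 16 other sensors, proteases and eIF2alpha kinases, Creb3l1 (OASIS), a membrane-bound factor related to ATF6 and known in bone matrix secretion, rose from 96.3 to 129 (0.42, adjusted p = 0.0242), and Creb3l4 (1.81 to 0.507, -0.89) and Mbtps1, the protease that cleaves ATF6 (20.2 to 16.3, -0.30), fell.

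Among genes linked to ATF4 outside the list, calls went both ways. Of 16 stress genes, 4 rose and 2 fell: Gdf15, a secreted stress cytokine, rose from 0.167 to 2.05 FPKM (1.37, adjusted p = 0.00067), Atf3 from 2.40 to 7.06 (1.25, adjusted p = 0.00114) and the cell cycle inhibitor Cdkn1a from 43.7 to 76.7 (0.79), whereas the mTORC1 inhibitor Ddit4 (60.3 to 43.4, -0.47) and Vegfa (67.0 to 54.9, -0.28) fell. These genes answer to other pathways as well. Of 33 amino acid transport, synthesis and tRNA charging genes, 6 rose and 5 fell, with a median of 0.08. The cystine transporter Slc7a11 rose from 0.997 to 3.00 (0.98, adjusted p = 0.00734) and its partner Slc3a2 (0.39) and the tRNA synthetase Wars (0.40) rose, while the arginine transporter Slc7a3 (4.11 to 1.81, -0.86), the glutamine transporter Slc1a5 (31.6 to 19.0, -0.70) and Gpt2 (-0.37) fell.

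A list of heat shock chaperones outside the ER, mostly cytosolic and with the mitochondrial Hspd1 and Hspe1, had 20 genes tested. Of these, none rose (0 also at an unadjusted p under 0.05, in edgeR and in DESeq2) and 5 fell, with a median of -0.11 and 8 positive fold changes. The small heat shock protein Hspb8 fell from 57.7 to 29.4 FPKM (-0.95, adjusted p = 0.000326), and the inducible HSP70 genes Hspa1a (10.8 to 6.91, -0.58) and Hspa1b (28.3 to 20.7, -0.44), near-identical copies whose reads may be shared, fell.

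**Figure D5:**
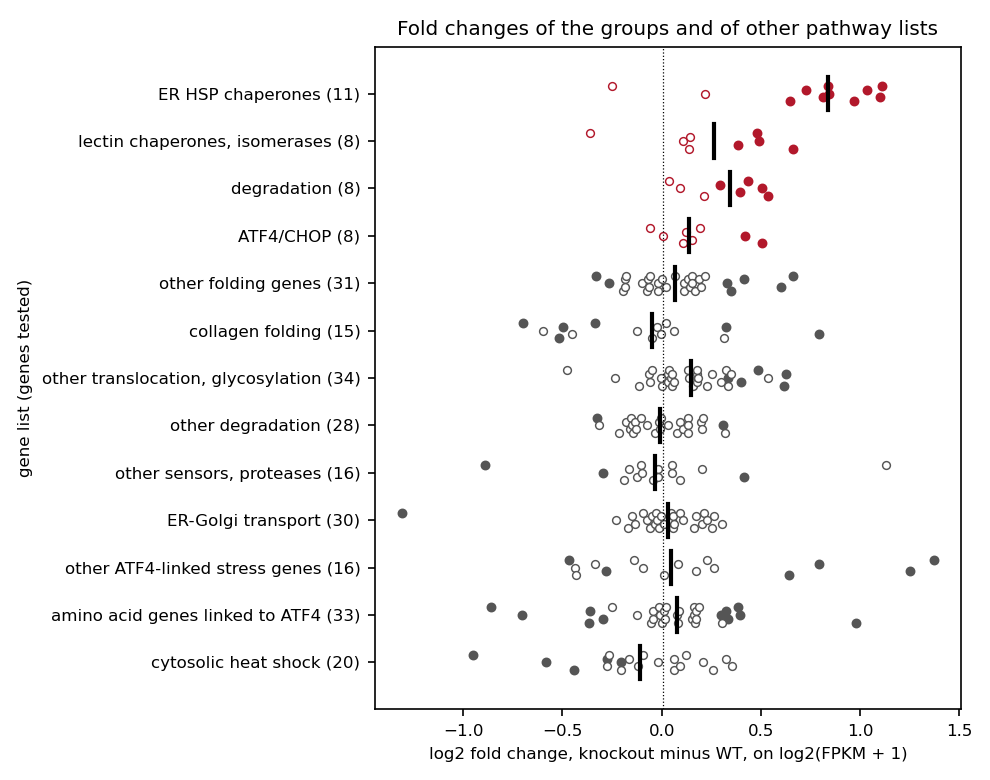
Log2 fold changes (knockout minus WT, x axis) of the tested genes of 4 role groups of the members (red) and of 9 lists of other pathway genes (grey), with the number tested after each name; filled points passed at an adjusted p of 0.05, black bars are medians and the dotted line is the median of all tested genes. The ER chaperone group has a median of 0.84 and the heat shock list, labelled cytosolic, of -0.11.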

How the data were processed

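Libraries were made from oligo(dT)-purified RNA with dUTP-marked second strands, per the labels' protocols. Reads were processed with cutadapt 1.9, HISAT2 2.0.4 and StringTie 1.3.4d on GRCm38, per the submitters' processing notes; no source used here gives the counting step, the annotation release or whether counting used strand. The authors deposited FPKM values to 2 decimals and estimated counts per gene, per the file headers. Counts were proportional to FPKM: among 5837 well-covered genes (5 FPKM and 300 counts or more), the ratio of count to FPKM between libraries stayed within 1% of one value for 100%. That ratio cannot show which of the measures was computed from the other. FPKM was the main measure, and few estimated counts limit low genes such as Derl3. The totals of 53.2 to 66.3 M (mega) estimated counts need not equal the number of fragments sequenced.

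The main test was limma 3.58.1 (R 4.3.3), run two-sided on log2(FPKM + 1) for the 12136 genes that reached 1 FPKM in 3 or more libraries. It used lmFit and eBayes with a trend, no covariate, Benjamini-Hochberg adjustment over those genes and a threshold of 0.05. edgeR 4.0.16 (quasi-likelihood) and DESeq2 1.42.0 on the estimated counts, other pseudocounts and filters, another scaling, the replicate number as a block and leaving out each library were alternatives. The fits were tested on simulated data. All 42 members are accounted for. Values in every library are given for called members, sensors and the ATF4/CHOP branch, and uncalled members of the other roles were given in full where they were close to a call or stood apart, chosen after their values were seen. From each other list up to 3 called genes per direction with the largest fold changes are named. Rbm15b, Dcaf1, Mrpl49, Mars1, 1810014B01Rik and Gm25745 are named because they overlap members and their mean reached 1 FPKM. Gm15344, inside Hsp90b1 (0.97 and 1.34 FPKM in WT and knockout cells), and Mir6988, inside Syvn1 (0.327 and 1.23), reached it in knockout cells only and were not described above. Older symbols of 2 genes were matched through RefSeq synonyms. The members and lists were chosen with earlier results of these data known. None of 8 endothelial markers passed the filter.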

Additional observations from a re-analysis of the deposited data

How the results depend on the processing

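Of the 23 members called higher, 12 kept the call and all 23 kept the direction in the 15 alternatives run (Derl2 and Ern1 in 14, since they did not reach an FPKM of 5 in 3 libraries), and 5 uncalled members were called under at least 1. Leaving out 1 library gave between 868 and 1685 genes higher and between 721 and 1314 lower over all genes, between 13 and 24 members higher and between 0 and 2 lower, between 0 and 2 ATF6/XBP1-type genes lower, between 0 and 2 ATF4/CHOP genes higher, and a median of the ATF6/XBP1-type genes between 0.40 and 0.48; fewer libraries and fewer degrees of freedom are part of that setting. With no filter, 15 members and 0 ATF4/CHOP genes were called higher, and an FPKM of at least 5 left 817 genes higher in all. ATF4/CHOP genes called higher numbered 1 in edgeR, 1 in edgeR without a filter, 1 in edgeR with DESeq2 size factors and 1 with libraries scaled to one median. DESeq2 called 1 member, the ATF6/XBP1-type gene Pdia5, lower. The median of the ATF6/XBP1-type genes was 0.48 with a pseudocount of 0.1, 0.48 in edgeR without a filter, 0.48 in edgeR with DESeq2 size factors and 0.48 in DESeq2. Signs turned only in uncalled members: Nupr1 was -0.033 in edgeR, -0.020 in edgeR without a filter, -0.025 in edgeR with DESeq2 size factors, -0.025 in DESeq2 and -0.019 with libraries scaled to one median; with 1 library left out Nupr1 lay between -0.17 and 0.15, Atf4 between -0.32 and 0.20, Sec61b between -0.021 and 0.13 and Eif2ak3 between -0.039 and 0.10. Where no reason is given, the cause was not tested.

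Titles carry a day number from 1 to 3 within each genotype, but another label gives one day for all, and the number was not taken as pairing. Deviations from the group means correlated at 0.02, 0.17 and 0.10 for same-numbered libraries. With the replicate number as a block, 1106 genes were higher and 980 lower, and 21 members were higher and 1 lower, the ATF6/XBP1-type gene Pdia5 (1 lower in that group).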

Other observations

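Some members share a promoter region with a gene on the other strand. Among genes whose RefSeq window overlaps that of a member, 4 were tested. Alg12, a mannosyltransferase of N-glycan assembly that diverges from Creld2 and lies across the same ERSE, stood at 6.24, 4.41 and 6.80 FPKM in the WT libraries and 7.25, 7.35 and 7.93 in the knockout libraries (log2 fold change 0.34, adjusted p = 0.166, limma); every knockout value was above every WT value, but the gene was not called, whereas Creld2 rose by 1.04 on the log2 scale. Mis12, a kinetochore gene next to Derl2, rose with it (9.49, 11.5 and 9.99 to 14.1, 14.8 and 12.9, 0.40, adjusted p = 0.0251). Plekha4, next to Ppp1r15a, fell (1.52, 1.89 and 1.52 to 0.420, 0.440 and 0.490, -0.86, adjusted p = 0.000966) while Ppp1r15a rose. Invs, next to Erp44, was not called (-0.04).

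Outside the members, 38 genes had an ERSE or ERSE-II in their window and 11 of these were tested. None rose in limma (1 at an unadjusted p under 0.05, 0 in edgeR and 0 in DESeq2), and their median log2 fold change was 0.01. Of 224 tested genes outside the members with a CARE, 30 rose and 22 fell, a share of 13.4% that rose beside 10.4% of all tested genes. With a UPRE the share was similar: of 94 tested genes outside the members, 13 rose (13.8%) and 9 fell.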
